A study of Homo sapiens with 4 samples.

Results

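The chromatin of 10 genes of antioxidant defence was examined in adrenocortical tumour cells by FAIRE-seq, which recovers DNA that is loosely packed or free of nucleosomes. The genes were the glutathione peroxidases GPX1 and GPX4, the peroxiredoxin PRDX3, the thioredoxin reductases TXNRD1 and TXNRD2, the superoxide dismutases SOD1 and SOD2, catalase (CAT), the nicotinamide nucleotide transhydrogenase NNT and NFE2L2, which encodes the transcription factor NRF2. A FAIRE site was assigned to a gene when it overlapped the annotated gene body or lay within 50 kb of it, a rule that used position alone. By this rule 46 of the 34423 sites of the basal list and 43 of the 31219 sites of the overexpression list belonged to the 10 genes. All positions are 1-based on hg19.

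The cells were H295R/TR SF-1, a derivative of the H295R adrenocortical tumour line in which doxycycline induces the nuclear receptor SF-1 (NR5A1), a regulator of steroidogenic genes. In the basal group the cells were left without doxycycline and had their basal SF-1 level. In the overexpression group the drug had been present for 3 days. Each group consisted of 1 FAIRE library and 1 input DNA library, and only the list of FAIRE sites of each group was used. Both groups carry the inducible construct and come from 1 tumour line. Without a doxycycline-treated line lacking the construct, an effect of the drug and an effect of SF-1 cannot be told apart. Differences are between single libraries, so no test exists and no difference has a replicate check. Intervals are exact 95% intervals and cover counting error only. Read depth is unknown, and a site missing from a list may lie in open chromatin that fell below the threshold of the caller. Among 5 genes that mark steroidogenic adrenal cells, STAR and CYP17A1 had a promoter site in both lists, NR5A1 in the basal list alone, and CYP11A1 and MC2R in the overexpression list alone. Of all protein-coding genes, 39.2% had overlapping promoter sites in both lists, 4.83% had one in the basal list alone and 6.79% in the overexpression list alone. The differences between lists at these 5 genes were not tested.

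Steroid synthesis in mitochondria and the endoplasmic reticulum relies on cytochrome P450 enzymes, which leak electrons to oxygen and so make the adrenal cortex a tissue with a heavy load of reactive oxygen species. Superoxide dismutases turn superoxide into hydrogen peroxide, which catalase, glutathione peroxidases and peroxiredoxins then reduce. Glutathione and thioredoxin are kept reduced with NADPH, part of which NNT makes in mitochondria, and loss of NNT or TXNRD2 in humans is known to cause familial glucocorticoid deficiency. NRF2 drives many genes of this system by binding antioxidant response elements (AREs) together with small MAF proteins.

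The clearest feature of the set was at the promoters. A promoter site was defined as a site that overlapped the stretch of 1 kb either side of the start of any protein-coding transcript of the gene. In each list 9 of the 10 genes had such a site, and in all 9 the sites of both lists overlapped. The exception was TXNRD2. The promoter sequences covered by these sites are shown first, because each comes from a site that overlapped one of the other list. They are read 5′ to 3′ on the strand of the gene, which is the minus strand of hg19 for PRDX3, SOD2 and NFE2L2 and the plus strand for the others. The stretches of SOD2, NNT and NFE2L2 are those of the overexpression list, which extend past the basal sites, and that of CAT is from the basal list. Of the 184 bases of NFE2L2 the basal site covered 34. Parts annotated as untranslated regions are left out, for GPX1 nothing of the site then remained, and that of SOD1 is not shown. Of sites that run past the start only the upstream part is shown. Capitals mark every match, on either strand, to the GC box (GGGCGG), the CCAAT box (CCAAT) and the ARE core (TGACNNNGC).

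GPX4, chr19:1103751-1103980: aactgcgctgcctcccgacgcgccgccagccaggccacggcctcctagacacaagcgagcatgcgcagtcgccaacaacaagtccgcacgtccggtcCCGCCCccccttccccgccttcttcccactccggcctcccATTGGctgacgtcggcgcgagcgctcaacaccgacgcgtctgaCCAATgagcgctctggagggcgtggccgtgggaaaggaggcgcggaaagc
PRDX3, chr10:120938325-120938449: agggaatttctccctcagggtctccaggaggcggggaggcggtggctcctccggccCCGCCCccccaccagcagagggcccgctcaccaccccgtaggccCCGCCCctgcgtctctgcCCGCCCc
TXNRD1, chr12:104609401-104609549: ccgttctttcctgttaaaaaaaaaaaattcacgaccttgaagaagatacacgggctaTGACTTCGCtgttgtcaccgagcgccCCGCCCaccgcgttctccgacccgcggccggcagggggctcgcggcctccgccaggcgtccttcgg
SOD2, chr6:160114401-160114649: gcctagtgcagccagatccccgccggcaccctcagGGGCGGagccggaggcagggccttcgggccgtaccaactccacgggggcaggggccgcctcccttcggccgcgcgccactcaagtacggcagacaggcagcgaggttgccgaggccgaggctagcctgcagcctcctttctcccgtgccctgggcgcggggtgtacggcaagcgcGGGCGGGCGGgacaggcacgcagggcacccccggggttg
CAT, chr11:34460251-34460480: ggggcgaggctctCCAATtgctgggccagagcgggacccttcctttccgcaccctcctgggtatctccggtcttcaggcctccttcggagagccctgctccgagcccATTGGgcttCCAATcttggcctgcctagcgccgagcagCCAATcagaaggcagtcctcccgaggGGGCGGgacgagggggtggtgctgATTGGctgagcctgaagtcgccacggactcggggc
NNT, chr5:43603951-43604199: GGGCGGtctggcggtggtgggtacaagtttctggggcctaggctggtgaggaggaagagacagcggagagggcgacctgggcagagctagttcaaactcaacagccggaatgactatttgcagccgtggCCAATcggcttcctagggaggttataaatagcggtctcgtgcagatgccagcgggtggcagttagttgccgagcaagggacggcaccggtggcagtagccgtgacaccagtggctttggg
NFE2L2, chr2:178129516-178129699: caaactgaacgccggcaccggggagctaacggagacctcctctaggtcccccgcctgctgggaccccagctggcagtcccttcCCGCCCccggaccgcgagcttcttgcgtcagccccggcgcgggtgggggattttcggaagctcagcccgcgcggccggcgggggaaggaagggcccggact

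Catalase had 5 CCAAT boxes in the 230 bases shown, in both orientations, of which the overexpression site held 4, and 1 GC box. GPX4 had 2 CCAAT boxes and 1 GC box, and NNT had 1 of each, with the GC box outside the basal site. PRDX3 and SOD2 had 3 GC boxes each and no CCAAT box, and the basal SOD2 site held 1 of these GC boxes. Only the TXNRD1 promoter among these 7 stretches held an ARE core, TGACTTCGC, centred 95 bp upstream of the transcription start. None of them held an SF-1 motif (CAAGGTCA or CAAGGCCA) or an AP-1 motif (TGAGTCA or TGACTCA). In the basal list 12 of the 16 promoter sites of the set held a GC box, against 67.2% of all sites at protein-coding promoters, and 8 held a CCAAT box, against 43.5%. In the overexpression list 12 of 14 held a GC box, against 68.8%, and 7 held a CCAAT box, against 41.5%. The GC box and the CCAAT box were searched after the sequences had been seen. A match is a run of letters and not a measured binding site.

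To ask how common promoter sites were, the same definition was applied to 19821 protein-coding genes. A promoter site was present at 44.8% of them in the basal list and at 46.8% in the overexpression list, beside 9 of the 10 antioxidant genes in each. Both lists had a promoter site at 40.0% of all genes, and 39.2% had a shared one, where 9 of 10 antioxidant genes did. A promoter site found in the basal list alone was present at SOD2 and NFE2L2, 2 of 10 genes, compared with 9.23% of all genes. Each of these sites lay within 500 bp of an overexpression site at the same gene, without overlapping it. None of the 10 genes had a promoter site found in the overexpression list alone, a class present at 11.6% of all genes. The antioxidant genes are broadly expressed, and genes of like expression were not compared. With the start of the representative MANE Select transcript as the only start, 9 of 10 genes again had a promoter site in each list, beside 42.2% and 44.2% of 18922 genes with such a transcript. That start was chosen as an alternative after the data had been seen.

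**Figure D1:**
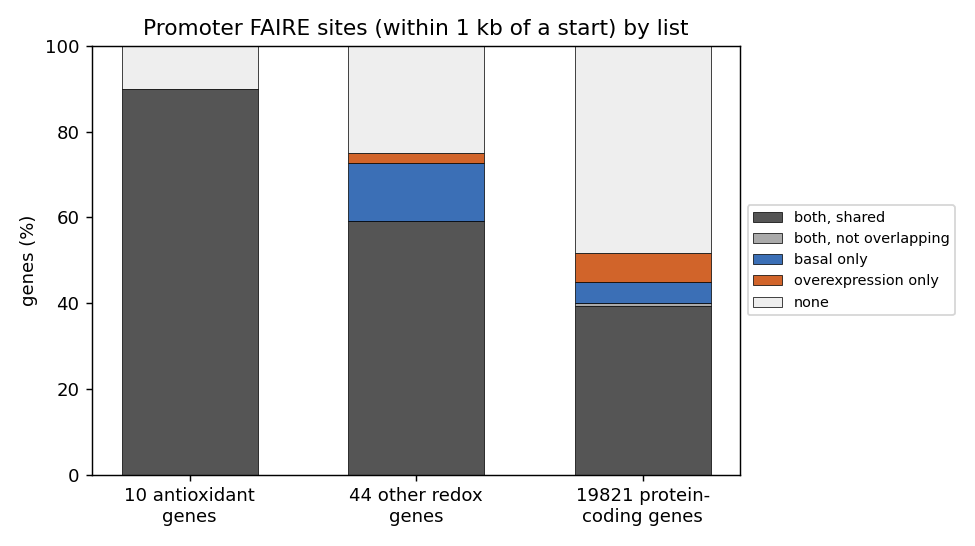
Share of genes (%) with a promoter site in both lists (overlapping or not), in 1 list or in none, for the 10 antioxidant genes, 44 other redox genes and 19821 protein-coding genes. The shared class takes 90.0%, 59.1% and 39.2% of the 3 bars.

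The windows of the 10 genes held between 2 and 11 sites in the basal list and between 2 and 8 in the overexpression list. The median was 3 sites per gene at the basal SF-1 level and 3.5 with overexpression, and over all protein-coding genes it was 3 in both. Every antioxidant gene had at least 1 site in each list, as had 86.2% of all genes for the basal list and 86.4% for the overexpression list. In sites per 100 kb of window the medians of the set were 2.65 and 2.68, beside 1.88 and 1.84 over all genes. The ratio of overexpression to basal sites was 0.935 (0.602 to 1.45) for the set and 0.907 for the whole lists. NFE2L2 had the most sites, 11 basal and 8 overexpression, followed by SOD2 with 9 and 8 and TXNRD2 with 5 and 7. TXNRD1 went from 6 sites in the basal list to 2 in the overexpression list, and PRDX3 from 2 to 4. GPX1 had 3 and 2 sites, GPX4 had 2 and 3, SOD1 had 3 and 2, NNT had 3 and 5, and CAT had 2 in each list.

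**Figure D2:**
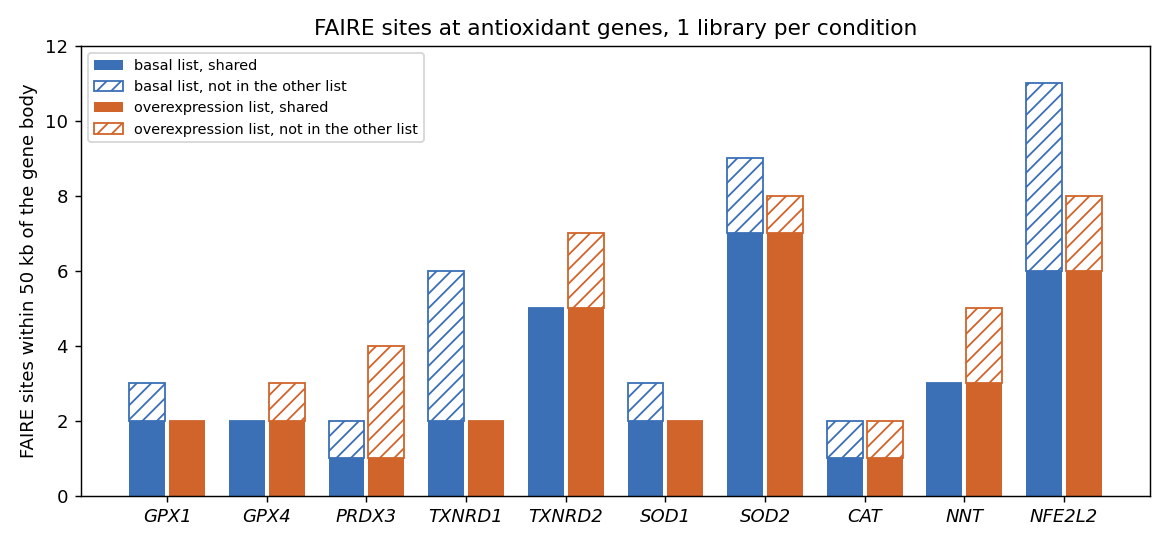
Number of FAIRE sites within 50 kb of each gene body in the basal list (blue) and the overexpression list (orange), split into shared sites (filled) and sites not in the other list (hatched). NFE2L2 has 11 and 8 sites, TXNRD1 6 and 2, and TXNRD2 5 and 7.

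An overlap of 1 bp or more between the lists made a site shared. In the basal list 31 of the 46 sites were shared, or 67.4% (52.0 to 80.5%), beside 54.2% of the whole list. In the overexpression list 31 of 43 were shared, or 72.1% (56.3 to 84.7%), beside 59.7% of the whole list. The interval of the basal share includes the value of the whole list, and so does that of the overexpression share. That left 15 sites in the basal list alone and 12 in the overexpression list alone, a ratio of 0.8 (0.342 to 1.83), with 0.798 for the whole lists. A basal-only site within 50 kb was present at 7 of the 10 genes, GPX1, PRDX3, TXNRD1, SOD1, SOD2, CAT and NFE2L2, compared with 60.7% of all genes. An overexpression-only site was present at GPX4, PRDX3, TXNRD2, SOD2, CAT, NNT and NFE2L2, also 7 genes, compared with 60.5% of all genes. These shares are near the background.

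Sharing went with position. Among sites at a promoter of any protein-coding gene, 22 of 24 basal and 22 of 26 overexpression sites were shared, that is 91.7% (73.0 to 99.0%) and 84.6% (65.1 to 95.6%). Away from promoters the counts were 9 of 22 and 9 of 17, or 40.9% (20.7 to 63.6%) and 52.9% (27.8 to 77.0%). The whole lists had the same order, with 81.1% and 77.6% at promoters and 44.1% and 51.5% elsewhere. Promoter sites of any gene made up 24 of the 46 basal sites and 26 of the 43 overexpression sites, compared with 27.3% and 31.4% of the whole lists. Windows drawn around genes contain promoters by construction. Of the basal sites 16 lay at a promoter of an antioxidant gene, 2 in an exon, 8 in an intron, 11 upstream and 9 downstream of the gene, and 8 lay at the promoter of a neighbouring gene alone. The overexpression list had 14, 2, 8, 12 and 7, with 12 at the promoter of a neighbour alone.

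**Figure D3:**
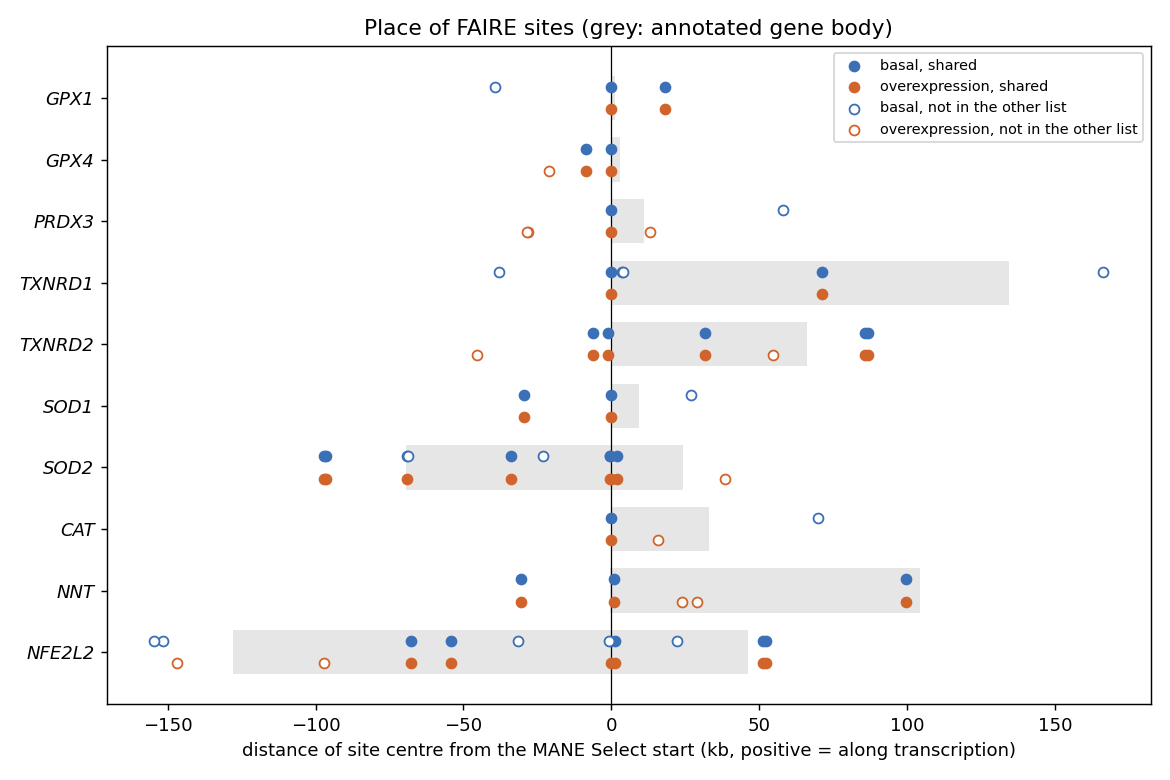
Distance (kb, in the direction of transcription) from the MANE Select start of each gene to the centre of each of its basal sites (blue) and overexpression sites (orange), with shared sites filled, sites not in the other list open, and the annotated gene body in grey. Shared sites stand at or near 0 for every gene, and NFE2L2 and SOD2 have sites spread along gene bodies of 174 and 93.5 kb.

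The glutathione peroxidases had compact windows with a site over the start. All sites at protein-coding promoters had a median width of 299 bp in each list. GPX1, which reduces hydrogen peroxide with glutathione, had a site of 299 bp at chr3:49395701-49395999 with the same coordinates in both lists, which covered 6 of its 7 annotated starts. Its other shared site lay 16.9 kb beyond the gene at the promoter of USP4, a deubiquitinase, at chr3:49377451-49377749 in the overexpression list and 349 bp wide in the basal list. A basal-only site of 149 bp lay upstream at chr3:49434951-49435099, inside the RHOA gene. GPX4, which reduces lipid hydroperoxides in membranes and restrains ferroptosis, had a site over its start at chr19:1103751-1104099 in the basal list and chr19:1103751-1104149 in the overexpression list. The promoter of POLR2E, which encodes an RNA polymerase subunit, held a shared site of 399 bp 8.33 kb away in the basal list. The overexpression list added a site of 349 bp at chr19:1082601-1082949 in ARHGAP45, with 2 ARE cores, TGACGCCGC and TGACTCTGC.

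PRDX3, the peroxiredoxin of the mitochondrial matrix, had a narrow promoter site, 149 bp at chr10:120938301-120938449 in the basal list and 199 bp from 120938251 in the overexpression list. All 3 of its overexpression-only sites were at promoters of other genes. One lay at chr10:120924951-120925249, at the start of the sideroflexin gene SFXN4, and held the SF-1 motif CAAGGTCA. The other 2, each of 199 bp, lay 28.0 and 28.5 kb upstream at the promoter of the kinase gene GRK5. Its basal-only site, chr10:120880001-120880349 in DENND10, held TGACTCAGC, which is an ARE core and an AP-1 motif at once.

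TXNRD1, the cytosolic thioredoxin reductase and a known NRF2 target, had shared sites at both of its groups of starts. The site at the MANE Select start ran from 104609401 to 104609549 on chromosome 12 in the basal list, ending 8 bp before the gene, and to 104609599 in the overexpression list, where it covered the start. That longer site took in another ARE core, TGACGGAGC on the minus strand. The site 71.1 kb into the gene covered 8 further starts and was wider, 299 bp at chr12:104680551-104680849 in the basal list and 399 bp at chr12:104680501-104680899 in the overexpression list. It also held an ARE core, TGACAAAGC. All 4 of its basal-only sites were away from promoters. Among them were 2 narrow intronic sites of 149 bp, centred 3.72 and 3.97 kb into the gene, chr12:104613201-104613349 with the ARE core TGACACTGC and chr12:104613451-104613599 with an AP-1 motif. The other pair lay 38.0 kb upstream and 31.6 kb downstream. All 4 stood late in the basal list. The intronic sites were at 97.4% and 88.8% of the list, the upstream site at 93.1% and the downstream site at 89.3%.

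TXNRD2, the mitochondrial thioredoxin reductase, was the gene without a promoter site. A shared intronic site moved toward the front, from chr22:19897551-19897799 at 61.1% of the basal list to chr22:19897501-19897799 at 38.7% of the overexpression list. Other shared sites moved the other way. The site 1.11 kb upstream in the basal list, with an SF-1 motif, went from 29.4% to 65.9% and from 249 to 149 bp. The site 5.91 kb upstream in the basal list went from 33.6% to 66.1% and from 349 to 199 bp. A further intronic site of 399 bp, chr22:19874601-19874999, was called with overexpression alone and held none of the ARE, SF-1 and AP-1 motifs. Downstream, 2 shared sites lay at the promoters of GNB1L and RTL10, and upstream an overexpression-only site of 199 bp lay at the promoter of ARVCF.

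SOD1, the copper and zinc enzyme of the cytosol, had a promoter site of 249 bp with the same coordinates in both lists, which lay just upstream of the gene. A site at chr21:33002451-33002699, 29.3 kb upstream, was also identical between lists. It moved back from 17.2% of the basal list to 45.3% of the overexpression list, while the promoter site went from 38.0% to 24.6%. The basal-only site downstream, chr21:33058701-33058899 in SCAF4, held the SF-1 motif CAAGGTCA.

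SOD2, the manganese enzyme of mitochondria, has an annotated body of 93.5 kb because some annotated transcripts begin at the starts of WTAP and ACAT2. The MANE Select transcript spans 24.2 kb. Upstream of its start lay a shared site at chr6:160114501-160114649 in the basal list and chr6:160114401-160114649 in the overexpression list, so 149 and 249 bp wide. Behind it was a shared site of 99 bp, chr6:160114851-160114949, among the last of both lists at 99.9% and 93.8%. A shared exonic site, centred 1798 bp into the gene in the basal list, was 349 bp wide there and 199 bp in the overexpression list, at chr6:160112301-160112649 and chr6:160112351-160112549. The far starts had shared sites at WTAP, chr6:160147951-160148149 in the basal list, and at ACAT2, chr6:160183251-160183549 in the basal list and 349 bp wide in the overexpression list. The only basal-only promoter site of SOD2 was at the ACAT2 start, chr6:160182851-160183149. It lies 68.7 kb from the MANE Select start. A basal-only intronic site, chr6:160137251-160137499, held the SF-1 motif CAAGGTCA. Upstream of the gene, the paired promoters of TCP1 and MRPL18 held 2 shared sites, and an overexpression-only site of 99 bp lay 14.4 kb downstream.

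CAT, the peroxisomal catalase, had a promoter site of 249 bp over its start, chr11:34460251-34460499 in the basal list and chr11:34460301-34460549 in the overexpression list. It stood late in both, at 80.2% and 97.7%. With overexpression an intronic site of 299 bp appeared at chr11:34476201-34476499, 15.9 kb into the gene, with the SF-1 motif CAAGGCCA on the minus strand. The basal-only site, chr11:34530251-34530449 in ELF5, held CAAGGTCA.

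NNT had a promoter site that did not cover its MANE Select start. Its centre lay 818 bp into the gene at chr5:43604001-43604199 in the basal list and 793 bp at chr5:43603951-43604199 in the overexpression list. A shared site of 399 bp in an exon near the end of the gene had the same coordinates in both lists, chr5:43702751-43703149. Intronic sites at chr5:43627151-43627349 and chr5:43632201-43632449 were called with overexpression alone and held none of the ARE, SF-1 and AP-1 motifs. A shared site of 399 bp held CAAGGTCA and lay 29945 bp upstream, from 43572451, in the basal list and 29995 bp upstream, from 43572401, with overexpression. On the other strand the same letters with 1 base more read TGACCTTGC, so the 2 motifs overlap here.

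NFE2L2 had the largest number of sites. Its annotated body of 174 kb is long because some transcripts begin far upstream, and the MANE Select transcript spans 34.4 kb. The site at chr2:178128201-178128499, 1105 bp into the MANE Select transcript, covered 9 alternative starts and had the same coordinates in both lists. Its place in the list moved from 77.2% to 25.7%, and 2.22% of all shared pairs moved further toward the front. On the minus strand, which is that of the gene, the site held the ARE core TGACAGCGC in the stretch chr2:178128331-178128360, and the SF-1 motif CAAGGCCA lay a few bases away on the plus strand.

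NFE2L2 ARE core, minus strand: cttggcttccgTGACAGCGCtcggttggcc

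The site at the MANE Select start of NFE2L2, chr2:178129401-178129549 in the basal list, covered 8 starts. Its partner in the overexpression list, chr2:178129501-178129699, overlapped it in part and no longer covered the MANE Select start, and its place went from 75.3% to 90.8%. A basal-only site of 349 bp lay farther upstream at chr2:178130151-178130499. The widest site of the gene body was a shared intronic one of 449 bp in the basal list and 399 bp in the overexpression list, from 178183451, with the SF-1 motif CAAGGCCA. The basal-only intronic site chr2:178160851-178161149 was 299 bp wide. The promoter of HNRNPA3, an RNA-binding protein gene downstream, held 2 shared sites, the wider of 449 bp in the basal list and 549 bp in the overexpression list.

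Across the set, 7 of the 46 basal sites held an ARE core (15.2%, 6.34 to 28.9%), beside 11.1% of the whole basal list. In the overexpression list it was 7 of 43 (16.3%, 6.81 to 30.7%), beside 12.2%. A longer form of the core, with 1 further A, was in 8.70% of the basal and 6.98% of the overexpression sites of the set. No whole-list share is available for this form, so these values cannot be set against a background. The SF-1 motif was also in 7 of 46 and 7 of 43 sites, beside 12.7% and 12.6% of the whole lists. An AP-1 motif was in 4 of 46 basal sites (8.70%, 2.42 to 20.8%) and in 1 of 43 overexpression sites (2.33%, 0.0589 to 12.3%), beside 6.95% and 5.58%. All 6 intervals include the value of the whole list. The median width of sites was 249 bp in each whole list and among the sites of the set in each. Each search covered the full length of a site and both strands. TGACTCAGC is both an ARE core and an AP-1 motif, and TGACCTTGC contains the reverse complement of an SF-1 motif.

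Of the sites that held these letters within gene bodies, away from promoters, 1 each is shown for TXNRD2, CAT and NFE2L2. The TXNRD2 site shown was shared and held 2 ARE cores, while the CAT and NFE2L2 sites shown were called with overexpression alone. Sequences are on the strand of the gene, which is the minus strand of hg19 for TXNRD2 and NFE2L2 and the plus strand for CAT, and capitals again mark ARE, SF-1, AP-1, GC box and CCAAT box matches.

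TXNRD2, chr22:19897501-19897799: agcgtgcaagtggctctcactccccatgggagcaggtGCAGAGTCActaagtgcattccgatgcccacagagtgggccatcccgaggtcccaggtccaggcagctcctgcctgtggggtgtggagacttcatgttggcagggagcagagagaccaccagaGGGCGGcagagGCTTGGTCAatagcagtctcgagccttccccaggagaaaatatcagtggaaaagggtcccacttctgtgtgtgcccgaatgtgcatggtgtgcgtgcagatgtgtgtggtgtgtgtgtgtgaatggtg
CAT, chr11:34476201-34476499: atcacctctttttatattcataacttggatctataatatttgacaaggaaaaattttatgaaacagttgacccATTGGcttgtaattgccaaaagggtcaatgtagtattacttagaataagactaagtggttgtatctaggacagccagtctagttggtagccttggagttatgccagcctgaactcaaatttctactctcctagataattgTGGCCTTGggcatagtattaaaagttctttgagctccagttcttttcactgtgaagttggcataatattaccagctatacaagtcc
NFE2L2, chr2:178226451-178226699: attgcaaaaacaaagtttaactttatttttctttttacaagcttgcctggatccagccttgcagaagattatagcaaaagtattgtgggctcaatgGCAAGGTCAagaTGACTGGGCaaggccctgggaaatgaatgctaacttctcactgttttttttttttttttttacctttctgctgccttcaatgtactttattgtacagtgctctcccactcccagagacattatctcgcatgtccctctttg

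In the TXNRD2 stretch the ARE cores were TGACCAAGC and TGACTCTGC, on the strand opposite to the gene. The NFE2L2 stretch held TGACTGGGC on the minus strand and, close to it, TGACCTTGC on the plus strand, whose reverse complement contains the SF-1 motif CAAGGTCA. These sites were chosen for display because of their motifs, so nothing can be read from the number of motifs in them.

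Width and place in the list were the only further measures of a site, since the deposited score was the same for all. Early places went with wider sites, but the quantity that set the order is not known. The 14 shared sites at promoters of the set were spread over most of both lists. GPX4 and GPX1 stood near the front, at 11.2% and 17.2% of the basal list and at 4.25% and 4.90% of the overexpression list. The site of TXNRD1 at its inner starts was at 9.02% and 14.4%, and PRDX3 was at 64.9% and 59.6%. At the back were CAT and the 99 bp site of SOD2. Of the 11 pairs at MANE Select promoters, 8 stood earlier in the overexpression list and 3 later. Earlier were GPX1, GPX4, PRDX3, TXNRD1, SOD1, both SOD2 sites and 1 of the NFE2L2 sites, and later were CAT, NNT and the other NFE2L2 site. Among all pairs at protein-coding promoters 53.8% stood earlier. Width rose in 6 of the 11 pairs, was equal in 5 and fell in none, compared with 42.7%, 29.9% and 27.4% of all promoter pairs. Over all 31 shared pairs of the set 13 stood earlier and 18 later, and 12 were wider and 8 narrower. The difference between promoters and other places was not tested.

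**Figure D4:**
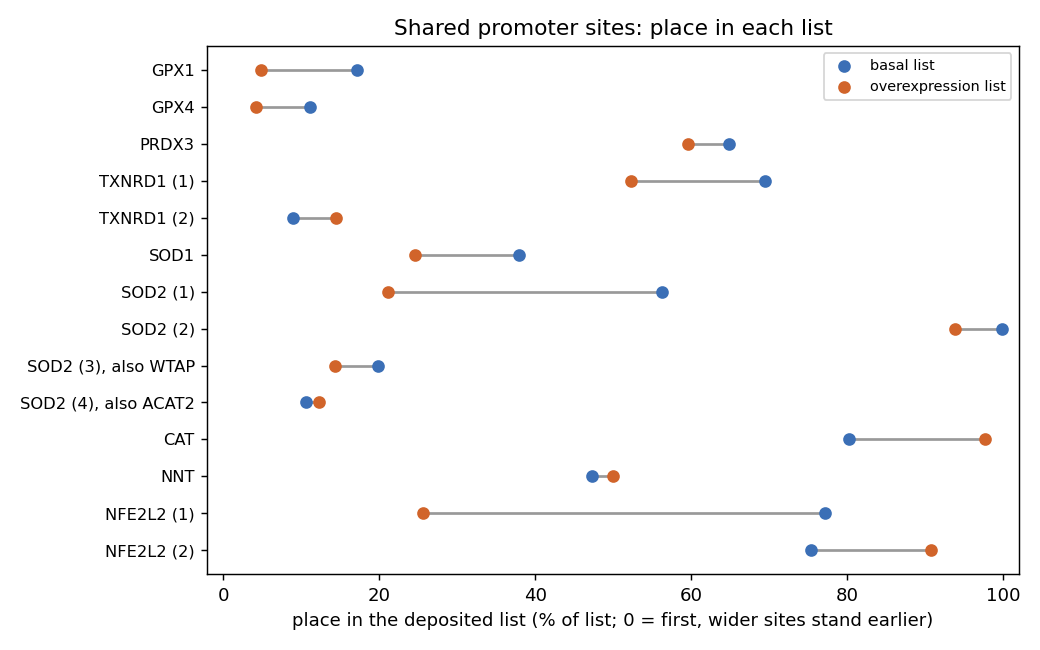
Place of each of the 14 shared promoter sites in the basal list (blue) and the overexpression list (orange), as a percentage of the list from its first entry at 0, with more than 1 site per gene numbered. The site of NFE2L2 numbered 1 moves from 77.2% to 25.7%, and CAT lies at 80.2% and 97.7%.

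By class, shared sites of the set had a median width of 299 bp in both lists, and sites in 1 list alone had 199 bp in the basal list and 249 bp in the overexpression list. The whole lists had 299 and 249 bp for shared sites and 199 bp for condition-only sites in both. Sites at the promoters of the set were rich in G and C, with a median of 67.1% for basal and 67.4% for overexpression sites, beside 64.5% and 65.3% for all promoter sites. Basal-only sites of the set had a median of 42.7%, and overexpression-only sites 49.6%, beside 40.5% and 46.5% for such sites of the whole lists.

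Promoter sites were also counted for the wider redox network. Of 44 other genes of the network 26 had a shared promoter site, 6 had one in the basal list alone, 1 in the overexpression list alone and 11 in neither. Over all protein-coding genes the shares of these classes were 39.2%, 4.83%, 6.79% and 48.4%. The 6 genes are 13.6% of the 44 and the 1 gene is 2.27%. Both counts are small and compare single libraries, so the difference between them was not tested. In all, 32 of the 44 had a promoter site in the basal list, to be read against 44.8% of all genes, and 27 in the overexpression list, to be read against 46.8%. All 5 genes of glutathione supply had a shared promoter site. These were GCLC and GCLM, the subunits of the rate-limiting enzyme of glutathione synthesis, GSS, which completes it, GSR, which reduces oxidised glutathione, and SLC7A11, the cystine transporter. GCLM and GSR each had an ARE core in the site, and GCLC had 2 in a shared site 3.10 kb upstream of its MANE Select start in the basal list. Peroxiredoxins followed with 4 of 5, PRDX6 lacking one. The other glutathione peroxidases GPX2, GPX3, GPX7 and GPX8 had no shared promoter site, whereas GPX1 and GPX4 had one.

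Among the regulators of NRF2, KEAP1, which targets it for degradation, and its partner CUL3 had shared promoter sites, as had MAFG and NFE2L1. MAFK had none. The KEAP1 site held 2 ARE cores in each list. The NRF2 targets NQO1, a quinone reductase, and FTL, the ferritin light chain, had shared sites, while HMOX1, the inducible haem oxygenase, and SRXN1 had none in either list. NADPH supply was mixed, with shared sites at IDH1 and IDH2 and none at ME1, TALDO1 and TKT. The shared IDH1 site was centred 11.1 kb upstream of its MANE Select start in the basal list. The IDH1 site near that start was found in the basal list alone. Thioredoxins TXN and TXN2 and the glutaredoxins GLRX2, GLRX3 and GLRX5 had shared sites. ACSL4, SOD3 and SELENOP had shared sites and AIFM2 had none.

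Promoter sites of these genes that were called in the basal list alone lay at GPX8 (399 bp at chr5:54456651-54457049 and 149 bp at chr5:54455651-54455799), GLRX (299 bp at chr5:95159351-95159649), PGD (149 bp at chr1:10459001-10459149) and MAFF (199 bp at chr22:38597901-38598099). BACH1, the repressor that competes with NRF2 for AREs, had one of 149 bp at chr21:30678001-30678149, 6.83 kb into its MANE Select transcript. FTH1, the ferritin heavy chain, had 2 of 149 bp at chr11:61734201-61734349 and chr11:61735151-61735299. The GLRX site held an SF-1 motif. GCLC, IDH1 and NFE2L1 had a basal-only promoter site beside their shared ones. Sites in the overexpression list alone lay at TXNRD3 (chr3:126373951-126374099), TXN2 (chr22:36877601-36877749) and NFE2L1 (chr17:46125051-46125299). FTH1 has processed pseudogenes, and how reads with several matches were placed is not stated.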

How the data were processed

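FAIRE-seq data of H295R/TR SF-1 cells were analysed, with 1 FAIRE library per group, and groups were taken from the labels. The input libraries were not analysed here. The submitters' processing notes name CASAVA 1.8 and hg19. The peak caller and threshold of the FAIRE lists are not given in the sources used here. In the deposited lists the score was 1000 at every site, so the authors' values carry no height. Starts lay on a grid of 50 bp.

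Sites were matched to GENCODE release 44 mapped to GRCh37, with windows of 50 kb around gene bodies and promoters of 1 kb either side of protein-coding starts. Sites were shared when they overlapped by at least 1 bp. Shares have Clopper-Pearson 95% intervals, and ratios have intervals from the exact binomial. No test between groups was possible. Python 3 scripts were tested on simulated sites. Alternatives covered window, overlap, promoter limit, width, list length, gene body and motif length.

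The members and lists were chosen with earlier results of these data known. All 10 genes are named. Sites in a gene body or at its promoter are given for genes with up to 6 of them, otherwise the promoter sites and the 3 widest, and for neighbouring genes the widest promoter site. Condition-only promoter sites of the other redox genes are named. Sequences follow the promoter sites rather than the widest site of each gene, which lay in part in untranslated regions, and 3 gene body sites were chosen for their motifs after these had been seen. Some sites, genes and sequences are not reported here.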

Additional observations from a re-analysis of the deposited data

How the results depend on the processing

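Of 62 alternative values of 14 results, 59 stayed within the spread or factor set for them. The other 3 were numbers of sites. Windows of 100 kb gave 72 basal and 69 overexpression sites, and dropping sites narrower than the pooled median left 29 basal sites. The limits set were wide, so 59 of 62 is not a measure of stability. They passed a fall from 43 to 29 overexpression sites under the same width rule. They also passed a fall of the ARE core share of overexpression sites from 16.3% to 6.98% with the longer form. The shared part of the basal sites ranged from 65.2 to 77.4%, and that of the overexpression sites from 65.5 to 80.0%. Members with a promoter site numbered 7 to 10 in each list, with 10 under a limit of 2.5 kb, which took in TXNRD2, and 7 at the 5′ end of the gene alone. The MANE Select gene body and start, the GC box and the CCAAT box were chosen after seeing the data. No paired analysis was possible because each group has 1 library. Unknown depth, the lack of replicates and the unknown peak threshold limit every comparison between the lists.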
